A study of Saccharomyces cerevisiae with 3 samples.

Results

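The regions described here are 241 windows of 150 bp of the budding yeast genome. In them MNase left naked DNA at 1 to 4 times the genome mean but almost no *dst1∆* chromatin. They were chosen by their measured levels. Each read start was moved 73 bp inward to the centre of its fragment, at most 10 reads were kept per strand position, and the centres were counted in 150-bp windows tiled along the 16 nuclear chromosomes. The count of each window was divided by the mean window count of its library, so that a level of 1 is the genome mean. A window was taken when the naked DNA was between 1 and 4 and both *dst1∆* replicates were at or under 0.2. This was met by 241 of 80303 windows, or 0.3%. The naked DNA range lies above most of the genome. Over all windows the naked DNA had a median level of 0.413 and an upper quartile of 1.01, and 14871 windows lay from 1 to 4.

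The 3 libraries were 1 of naked DNA from wild-type BY4741 cells and 2 of chromatin from BY4741 cells that carry a deletion of *DST1*, the gene of the transcription elongation factor TFIIS. BY4741 is a haploid laboratory strain (MATa *his3Δ1 leu2Δ0 met15Δ0 ura3Δ0*), and its auxotrophies are shared by both groups. Chromatin was cross-linked in exponentially growing cells and partially digested, naked DNA was purified before digestion, and fragments of mononucleosome size were cut from a gel and sequenced. Wild-type chromatin was not analysed here, so nothing below can be set down to the lack of TFIIS. Replicate 2 of *dst1∆* was sequenced on another instrument and with other read lengths than replicate 1 and the naked DNA, and this cannot be told apart from any way in which the replicates differ.

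MNase cuts the linker DNA between nucleosomes and digests it, while DNA wrapped around histones is protected. It also prefers A/T-rich sequences, so that even naked DNA gives an uneven map, which the naked DNA control measures. Promoters of yeast genes commonly hold a nucleosome-depleted region (NDR) just upstream of the transcription start site (TSS), flanked by the −1 nucleosome on the promoter side and by the +1 nucleosome at the start of the gene. NDRs are rich in A/T, so low chromatin signal there often goes along with low naked DNA signal. The windows described here are those in which the naked DNA was not low.

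The naked DNA library held 16618987 nuclear reads and the *dst1∆* replicates 10776646 and 9047739, of which the limit on repeated reads kept 63.2%, 72% and 74.1%. A mean window then held 131, 96.6 and 83.5 counts, and the limit that a count of 0 allows, 3 counts, is a level of 0.0229, 0.0311 and 0.0359. Intervals given below are 95% exact intervals (Poisson for counts, Clopper-Pearson for shares). They cover counting error only, since repeated reads from copies of 1 molecule cannot be told apart from separate molecules. Nothing in the naked DNA is replicated, the labels do not say whether the 2 *dst1∆* libraries came from separate cultures, and the windows are not replicates of each other, so no p-value is given.

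In the naked DNA, the members ranged from 1.00 to 3.94 with a median of 1.55, which is 131 to 515 counts with a median of 203. In replicate 1 they ranged from 0.0104 to 0.197 with a median of 0.114 (1 to 19 counts, median 11). In replicate 2 they ranged from 0 to 0.192 with a median of 0.0359 (0 to 16 counts, median 3). These ranges are set by the choice of the windows, and the values within them are also touched by it. Replicate 1 was the higher of both in 210 windows and replicate 2 in 31, with means over the windows of 0.112 and 0.0479, a ratio of 2.33. In replicate 2, 34 windows held no count, while none did in replicate 1. The windows that met the same naked DNA range but were not members (14630) had median levels of 1.97, 1.25 and 1.14 in the naked DNA and in replicates 1 and 2.

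**Figure D1:**
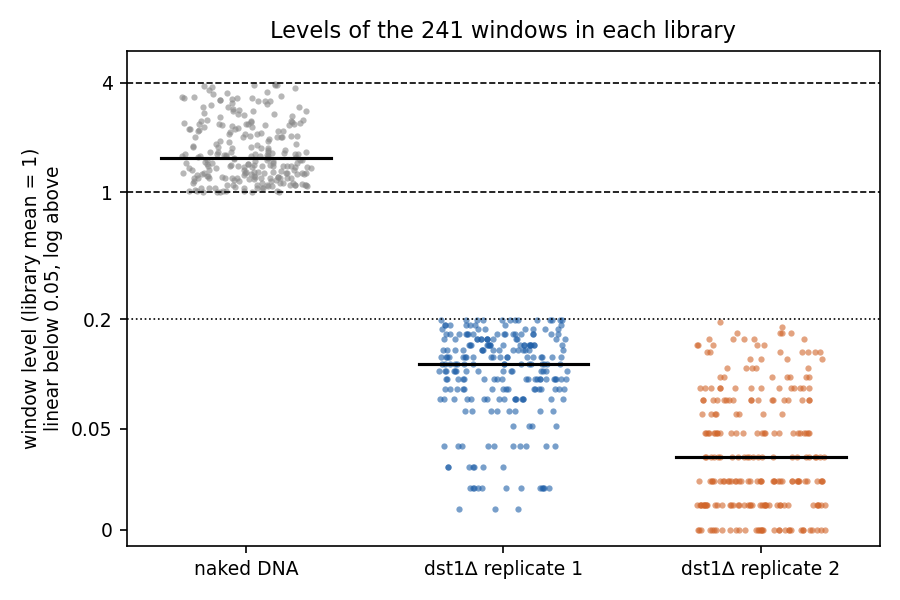
Each point is the level of 1 of the 241 windows in 1 library, relative to the mean window of that library, on an axis that is linear below 0.05 and logarithmic above; black bars are medians and the dashed and dotted lines are the limits that chose the windows. The naked DNA sits mostly in the lower part of its range (median 1.55), and replicate 2 (median 0.0359) lies under replicate 1 (median 0.114).

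Most members lay in the lower part of the naked DNA range. A level under 2 was found in 160 of them (66.4%), a level of 2 to 3 in 55 and one of 3 or more in 26. This is partly what the genome offers, but the share of windows that were members also differed along the range. It was 2.37% (114 of 4817) for naked DNA from 1 to 1.5 and 0.71% (10 of 1408) from 3.5 to 4. The naked DNA signal of a member did not come from a few repeated reads alone: its reads started at a median of 70 distinct strand positions (23 to 125). Over all members, 81.9% of the naked DNA reads were within the limit of 10 per position. The 63.2% over the genome is not a like baseline, since it includes windows over a level of 4, which the choice left out.

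The limits cut through a continuous range of values. The lowest naked DNA among the members was 131 counts (1.002), which 5 of them held, among them those upstream of *NUS1*, a gene of dolichol synthesis (IV:114451-114600) and of *ZRG8* (V:221551-221700), and the 3 nearest windows outside held 130 counts (0.9943). At the upper limit, the members with 515, 511 and 509 counts had levels of 3.939, 3.908 and 3.893, and the nearest depleted windows outside had 4.275, 4.275 and 4.329. In replicate 1, a member could hold up to 19 counts (0.1967) and the nearest windows outside held 20 (0.207). In replicate 2, the highest members held 16, 15 and 14 counts (0.1916, 0.1796 and 0.1676) and the nearest outside 17, 18 and 18 (0.2036, 0.2155 and 0.2155). All of these steps are smaller than the counting error of a single window.

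How common such windows are depends on which chromatin library is asked. Of the 14871 windows with naked DNA from 1 to 4, 287 (1.93%) were at or under 0.2 in replicate 1 and 982 (6.6%) in replicate 2, and 241 (1.62%) were so in both. Thus 46 windows met the limit in replicate 1 only and 741 in replicate 2 only. The 741 had a median level of 0.673 in replicate 1. Replicate 1 was thus the stricter of both, and 241 of the 287 windows that it took were also taken by replicate 2. Without regard to the naked DNA, 6731 of all windows (8.38%) were at or under 0.2 in both replicates. Of these, 6475 had naked DNA under 1 and 15 had more than 4. The low naked DNA windows held little of anything: their median naked DNA level was 0, and 3278 of them had no naked DNA count.

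The members were single windows scattered over the genome. There were 239 of them alone, 1 pair of adjacent windows and no longer run, with a median distance of 33.5 kb between neighbours on a chromosome and 5 of 225 neighbouring pairs within 1 kb. Every chromosome held some, from 2 on chromosome I to 36 on chromosome IV. As a share of the windows with naked DNA from 1 to 4, this was lowest on chromosome I (0.658%) and III (0.73%) and highest on IV (2.2%) and V (2.21%). The outer 30 kb of the chromosomes held 20 members, 1.63% of the 1225 windows there with naked DNA from 1 to 4, and the rest of the genome held 221, 1.62% of 13646. Windows at or under 0.2 in both replicates, with any naked DNA, were more common at the ends, 23.9% of all windows against 7.04%. Whether reads could be placed there unambiguously was not tested.

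Where the members lay was not part of their choice. TSS and polyadenylation sites (pAS) were taken from the study's list in sacCer2 coordinates, of which the part used here is complete only over the first 290 kb of each chromosome. In that stretch, 105 of 5910 windows with naked DNA from 1 to 4 were members (1.78%). The centre of 80 of the 105 members (76.2%, interval 66.9% to 84%) lay between 300 bp upstream and 50 bp downstream of a TSS, hereafter upstream of a gene. Windows with the same naked DNA range that were not members lay there in 10.5% of cases, and all windows in 12.6%. By contrast, 3 members lay in a gene body (2.86%, interval 0.593% to 8.12%), where 73.2% of the other windows with that naked DNA were found. A pAS was within 100 bp of 2 members (1.9%) outside these upstream windows, and 20 (19%) lay elsewhere.

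Put the other way round, the share of members was taken among windows with naked DNA in the same range. Of 691 such windows upstream of genes, 80 (11.6%, interval 9.29% to 14.2%) were members. The share was 3 of 4255 (0.0705%, interval 0.0145% to 0.206%) in gene bodies, 2 of 151 (1.32%) around a pAS and 20 of 813 (2.46%) elsewhere. The intervals of the upstream and gene body shares do not overlap. The naked DNA of both positions had a median of 2 within the range, and in each part of it the upstream share was the higher: 14.7% against 0.14% from 1 to 2, 10.4% against 0% from 2 to 3 and 6% against 0% from 3 to 4, with upper limits of 0.31% and 0.397% in gene bodies for the last 2. Each replicate alone gave the same order of these positions: 13.2% upstream and 0.094% in gene bodies in replicate 1, and 27.8% and 1.36% in replicate 2. Most depleted windows upstream of genes had low naked DNA. Of 781 that were at or under 0.2 in both replicates, 698 had naked DNA under 1, 80 (10.2%) were the members and 3 had more than 4.

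Within the upstream stretch the members kept to a narrow place. Their 80 windows formed 95 pairs with a gene, and the distance of the window centre from the TSS had a median of −109 bp with quartiles of −146 and −72.5 bp. Between 150 and 50 bp upstream lay 67.4% of the pairs. This was so for 65% of the pairs of windows depleted with naked DNA under 1 (median −96 bp) but for 20.2% of those of the non-members with naked DNA from 1 to 4 (median −160 bp). The members thus sat where the low naked DNA windows of the NDR sit.

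The depleted share peaked sharply with distance. Of the windows with naked DNA from 1 to 4 centred 100 to 50 bp upstream, 36 of 100 were members (36%, interval 26.6% to 46.2%), and 28 of 109 (25.7%, interval 17.8% to 34.9%) were so from 150 to 100 bp upstream. It fell to 9.3% from 200 to 150 bp and to 5.75% from 50 bp upstream to the TSS. From 50 to 300 bp downstream, where the +1 and +2 nucleosomes lie, no member was found in 5 steps of 50 bp, with upper limits of the intervals from 1.91% to 3.05%. Even at the peak most windows with such naked DNA were not members: between 100 and 50 bp upstream, replicate 1 alone took 42% and replicate 2 alone 59%. Of all windows at this place, with any naked DNA, 55.9% were at or under 0.2 in both replicates. A naked DNA level from 1 to 4 was itself less common there (15.2% of windows) than 200 to 250 bp downstream of the TSS (29.1%).

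**Figure D2:**
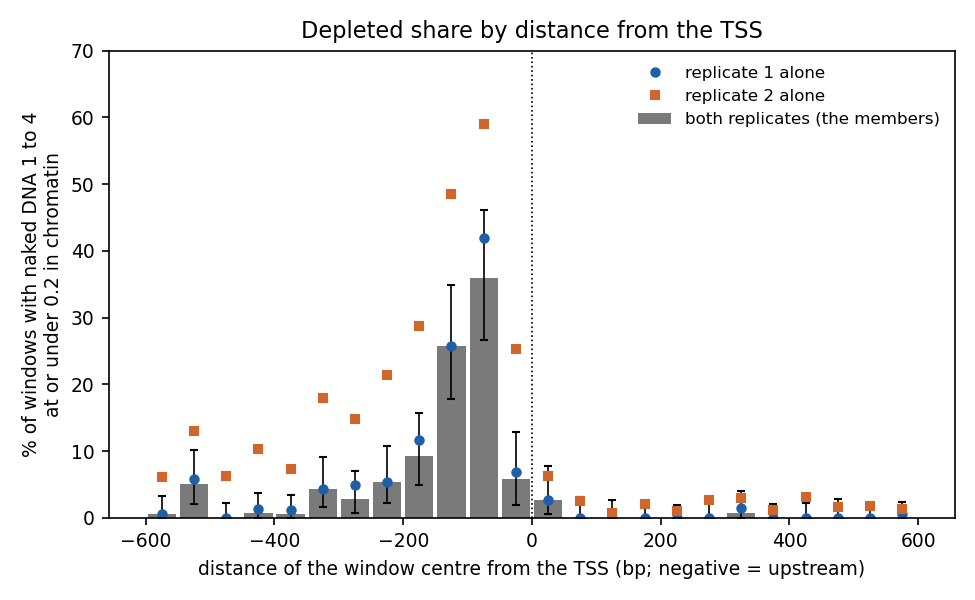
The x axis is the distance of the window centre from the TSS in steps of 50 bp and the y axis the percentage of windows with naked DNA from 1 to 4 that were at or under 0.2 in chromatin: bars for both replicates (the members) with 95% exact intervals, circles for replicate 1 and squares for replicate 2. The share reaches 36% between 100 and 50 bp upstream and lies near 0 downstream of the TSS in both replicates.

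Beyond the depletion, the mean chromatin signal rose to a peak on either side. Signal outside the window was not used by the choice. In the 65 upstream members that face genes on 1 strand only, aligned in the direction of the gene, the first peak on the promoter side was 155 bp from the centre at a mean level of 1.73 in replicate 1, and 147 bp away at 1.82 in replicate 2. On the side of the gene, the first peak was 145 bp away at 1.37 in replicate 1 and 134 bp away at 2.27 in replicate 2. The replicates thus placed the first flanking peaks close to each other. Both were chosen to be low over the same 150 bp, so this closeness is in part set by the choice. In replicate 1, however, the first peak on the gene side was below the level farther out on the flanks (1.49). Its highest level within 400 bp on that side lay 317 bp away. The height on the gene side depended on the limit on repeated reads. The highest level within 400 bp there was 1.62 and 2.27 in replicates 1 and 2, but 3.79 and 3.71 without the limit and 1.7 and 1.78 with 1 read per position. The naked DNA differed between the sides. Towards the gene it was 0.684 at 150 bp, where replicates 1 and 2 were at 1.37 and 2.12, and averaged 0.985 from 76 to 400 bp. On the promoter side it had a first peak of 1.56 at 185 bp and averaged 1.39 over the same distances.

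The 551 upstream windows depleted with naked DNA under 1 met the same chromatin limit, which in part sets where flanking peaks can lie. Their flanking peaks were at like distances. These were 148 and 137 bp on the promoter side (1.23 and 1.42 in replicates 1 and 2) and 138 and 136 bp on the gene side (1.29 and 1.62). The peaks around the members were higher in all 4 values, but so was their signal farther out on the flanks. That was 1.49 and 1.32 around the members in replicates 1 and 2, against 1.23 and 1.13 around these windows. Higher signal around the members was thus not limited to the first peaks. How much of the difference in the peaks goes with that of the flanks was not tested. In the 505 upstream windows with naked DNA from 1 to 4 that were not members, the chromatin averaged 1.42 and 1.16 over the window in replicates 1 and 2, above the genome mean.

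**Figure D3:**
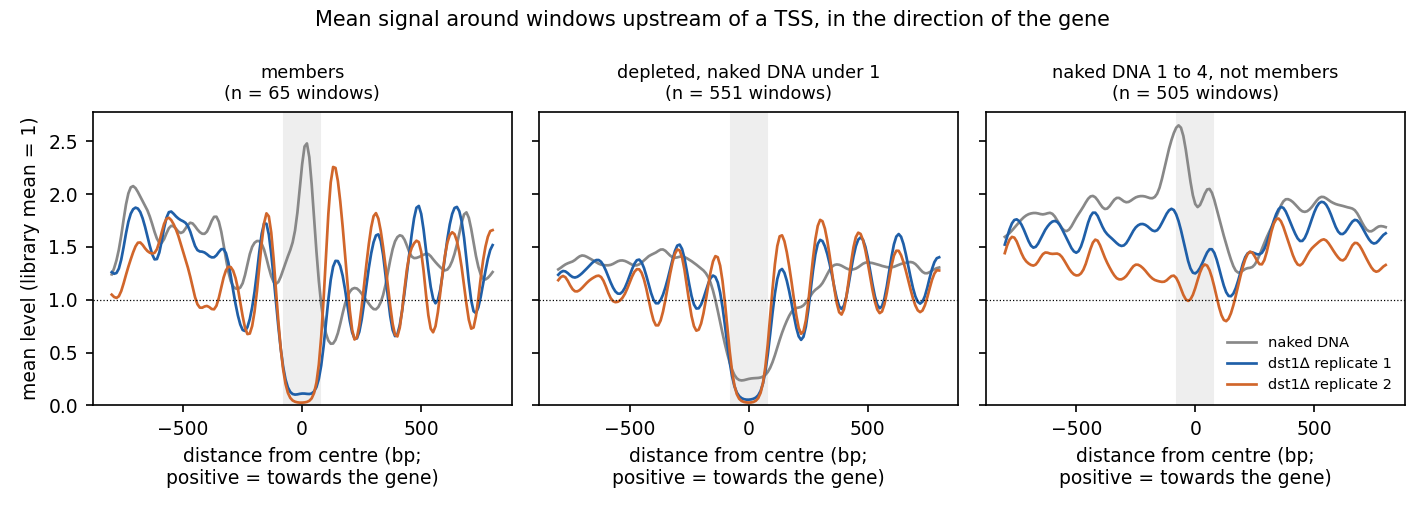
Mean level in 10-bp steps from 800 bp on the promoter side (negative) to 800 bp on the gene side of the window centre, smoothed with an SD of 20 bp, for naked DNA (grey), *dst1∆* replicate 1 (blue) and replicate 2 (orange); the shaded band is the 150-bp window that the choice used. In the members (left) a naked DNA peak stands in the valley of both replicates, in the low naked DNA windows (middle) all libraries fall together, and in the other windows with naked DNA from 1 to 4 (right) chromatin is not depleted.

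The width of the depleted stretch, from the first base on each side at which the smoothed signal reached a level of 0.5, was close to that of a promoter NDR with low naked DNA. Both groups were chosen at or under 0.2 over the same 150 bp, so the width and its likeness are in part set by the choice. Over all members the median width was 218 bp in replicate 1 (quartiles 191 and 302) and 225 bp in replicate 2 (191 and 330). For the 80 upstream members it was 220 and 212 bp, and for the 698 upstream windows with low naked DNA 219 and 223 bp. All 6475 low naked DNA windows of the genome had medians of 986 and 649 bp. Of the 6475, 3278 held no naked DNA count, so these widths cannot be read as chromatin depletion alone. Only unambiguously placed reads were retained, and whether reads could be placed there was not tested. More than 400 bp were depleted around 31 members in replicate 1 (12.9%) and around 37 in replicate 2 (15.4%).

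The naked DNA beside the members was close to that of a typical window. In the windows next to the members its median level was 0.398 on one side and 0.512 on the other, at or near the genome-wide median of 0.413, while the chromatin had risen to 0.714 and 0.756 in replicate 1 and to 0.97 and 0.958 in replicate 2. Both neighbours had naked DNA under 1 in 135 of the 241 members (56%) and in 4572 of the 14630 non-members with naked DNA from 1 to 4 (31.3%), whose neighbours had medians of 0.818 and 0.803.

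The upstream members with the most naked DNA were those of *BEM4*, *SAR1*, *AIM34* and *SER33*. *BEM4* acts in bud emergence, and its window (XVI:246301-246450), centred 98 bp upstream of the TSS, held 509 counts of naked DNA (3.89), 7 in replicate 1 (0.0725, interval 0.0291 to 0.149) and 0 in replicate 2 (under the 3-count limit of 0.0359). *SAR1*, the small GTPase that starts COPII coat assembly at the endoplasmic reticulum, had 506 counts of naked DNA (3.87), 14 in replicate 1 (0.145) and 2 in replicate 2 (0.0239) in a window centred 108 bp upstream (XVI:138451-138600). *SER33*, a phosphoglycerate dehydrogenase of serine synthesis, had 459 counts (3.51) against 9 (0.0932) and 3 (0.0359) at 54 bp upstream (IX:222601-222750).

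*AIM34*, named for altered inheritance of mitochondria, had levels of 3.78, 0.0932 and 0.0359 in the naked DNA and in replicates 1 and 2 (XIII:272851-273000, 164 bp upstream). Single windows did not all have the same flanks. Between 80 and 300 bp towards the gene, replicate 2 reached 3.53 at *SAR1*, 6.19 at *AIM34*, 6.94 at *BEM4* and 9.66 at *SER33*. Replicate 1 reached less, with 1.18, 2.3, 3.24 and 4.83 in the same order. At *BEM4* and *SER33* these maxima lay 300 and 290 bp from the centre in both replicates, at the far end of the stretch. On the promoter side replicate 2 reached 1.52 at *AIM34* and 4.87 at *BEM4*, and replicate 1 reached 0.405 and 1.93 there. The *AIM34* window thus bordered a nucleosome on the gene side, with lower chromatin signal on the other.

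**Figure D4:**
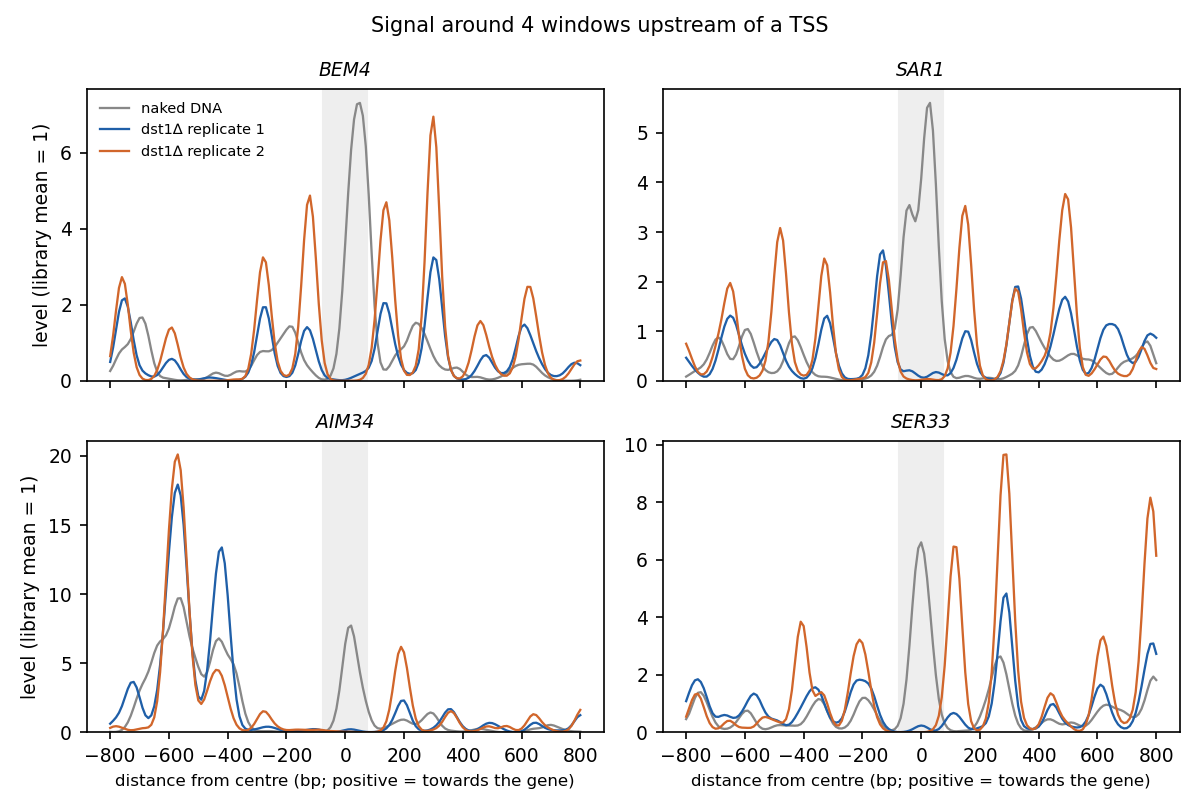
Level (library mean = 1, smoothed with an SD of 20 bp) against the distance from the window centre, positive towards the gene, for naked DNA (grey) and *dst1∆* replicates 1 (blue) and 2 (orange) around the 4 upstream members with the highest naked DNA (3.51 to 3.89); each panel has its own vertical scale and the shaded band is the 150-bp window. A naked DNA peak stands within the band in each panel, over its gene-side part at *BEM4* and *AIM34*, while both replicates are low over most of it.

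Some members served genes on both strands. Of the 80 upstream windows, 15 (18.8%) were upstream of a gene on either strand, close to the 17.3% (106 of 611) of the non-members with naked DNA from 1 to 4, and 24 (30%) were also within 100 bp of a pAS, against 70 of the 611 (11.5%). One of them lay 118 bp upstream of *FIR1*, a gene of mRNA 3′ processing, and 94 bp upstream of *YPT31*, a Rab GTPase of the Golgi. That window (V:214801-214950) had levels of 2.17, 0.0932 and 0 in the naked DNA and in replicates 1 and 2. Another lay 84 bp upstream of *MCK1*, a protein kinase of the GSK-3 family, and 296 bp upstream of *MRPS18*, a mitochondrial ribosomal protein gene (XIV:57751-57900), at 3.37, 0.166 and 0.156. It was the named window in which replicate 2 came nearest to its limit.

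Gene lists compiled by the study were compared in the same way, by the share of upstream windows with naked DNA from 1 to 4 that were members, beside the 11.6% over all listed genes. The lists overlap, and a window upstream of several genes counts for each of their lists. Among genes described as having a fragile −1 nucleosome, one lost under stronger MNase digestion, the share was 48 of 296 windows (16.2%). The list of genes with a stable −1 nucleosome was used in part and covers chromosomes VII to XVI only, so both were compared there. On these chromosomes the share was 34 of 185 windows (18.4%, interval 13.1% to 24.7%) for fragile and 18 of 229 (7.86%, interval 4.72% to 12.1%) for stable −1 genes. Counted by gene, 36 of 435 fragile −1 genes (8.28%) and 21 of 685 stable −1 genes (3.07%) had a member, with no gene in both lists. Both replicates gave the same order, with 22.2% against 9.61% in replicate 1 and 44.3% against 15.7% in replicate 2. With any naked DNA, 268 of 921 upstream windows of fragile −1 genes on these chromosomes (29.1%) were at or under 0.2 in both replicates. For stable −1 genes it was 240 of 1403 (17.1%). The order is thus not particular to the naked DNA range of the members. The study took both classes from other data, and these shares were not tested.

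Fragile −1 genes with a member of high naked DNA included *SAR1*, *AIM34* and *SER33*, given above. Stable −1 genes included *BEM4*, *MCK1* with *MRPS18*, and *SLM1*, whose product binds phosphoinositides at the plasma membrane and whose window (IX:169801-169950) held 387 counts of naked DNA (2.96), 19 in replicate 1 (0.197) and 1 in replicate 2 (0.012).

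Reb1, Abf1 and Rap1 are general regulatory factors, DNA-binding proteins that keep promoter NDRs open. Genes bound by Reb1 had 10 members among 42 windows (23.8%, interval 12.1% to 39.5%), an interval that reaches below the 14.2% upper bound over all listed genes. By gene this was 12 of 94 (12.8%) against 5.04% (95 of 1884) overall. This excess was kept in some settings and lost in others. With 1 read per position 9.57% of the Reb1-bound genes and 4.72% of all had a member, and with a chromatin limit of 0.1 it was 8.51% and 2.23%. Without the limit on repeated reads 2.13% of the Reb1-bound genes and 3.77% of all had a member, and with naked DNA of at least 1.5 it was 1.06% and 2.71%. In 9 of the 10 windows the naked DNA was under 1.5. With any naked DNA, 26.4% of the upstream windows of Reb1-bound genes were at or under 0.2 in both replicates, against 20.3% over all listed genes.

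The Reb1-bound genes with the highest naked DNA were *GTS1*, *PRE1* and *ARF2*. *GTS1*, known from its effect on the timing of metabolic oscillations, had 217 counts of naked DNA (1.66), 1 in replicate 1 (0.0104) and 0 in replicate 2, in a window centred 142 bp upstream (VII:157651-157800). *PRE1*, a subunit of the 20S proteasome core, had 192 (1.47), 14 (0.145) and 3 (0.0359) at 86 bp upstream (V:177601-177750). *ARF2*, an ADP-ribosylation factor of vesicle traffic that is also listed for Abf1 and Rap1, had 190 (1.45), 9 (0.0932) and 3 (0.0359) at 84 bp upstream (IV:215851-216000).

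Abf1-bound genes (26 of 180 windows, 14.4%), Rap1-bound genes (22 of 198, 11.1%) and genes listed for none of these factors nor as ribosomal protein genes (39 of 365, 10.7%) had shares whose intervals all include the 11.6% over all genes. *KIP1*, a kinesin of the mitotic spindle, is listed for both Abf1 and Rap1, and its window (II:101701-101850) had levels of 3.32, 0.0932 and 0.0838 in the naked DNA and in replicates 1 and 2. Of the upstream members, 39 of 80 faced a gene on none of these lists, near the 365 of 691 among all upstream windows with that naked DNA.

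Ribosomal protein (RP) genes were the list in which the replicates parted most. Their upstream windows with naked DNA from 1 to 4 numbered 28, and 16 of them (57.1%) were at or under 0.2 in replicate 2 but 2 (7.14%) in replicate 1. The median level of the 28 was 1.1 in replicate 1 and 0.114 in replicate 2. The only member was upstream of *RPL35B*, a protein of the large ribosomal subunit, with 238 counts of naked DNA (1.82), 17 in replicate 1 (0.176, interval 0.103 to 0.282) and 1 in replicate 2 (0.012) at 104 bp upstream (IV:217351-217500). The share of 1 in 28 (3.57%) has an interval of 0.0904% to 18.3%, which includes that of all genes. This gap and the sequencing runs of the replicates cannot be told apart.

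TATA genes, whose promoters hold a TATA box, had members in 18 of 216 windows (8.33%). On chromosomes I to VI and VIII to XI, which the part of the TATA-like list used here covers, it was 15 of 134 (11.2%, interval 6.4% to 17.8%) for TATA and 37 of 308 (12%, interval 8.6% to 16.2%) for TATA-like genes. These intervals overlap. *CYC7*, an isoform of cytochrome c listed as a TATA gene, had 368 counts of naked DNA (2.81), 11 in replicate 1 (0.114) and 1 in replicate 2 (0.012) in a window 152 bp upstream (V:80251-80400). *SAM35*, of the sorting and assembly machinery of the outer mitochondrial membrane and listed as TATA-like, had levels of 2.86, 0.104 and 0.0718 (VIII:272401-272550).

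Highly transcribed genes had 8 members among 61 windows (13.1%, interval 5.84% to 24.2%). They included *MRP8* (2.72, 0.104 and 0.0239 in the naked DNA and in replicates 1 and 2), *MCR1*, the NADH-cytochrome b5 reductase of mitochondria (1.8, 0.186 and 0.012), and *FCY2*, a purine-cytosine permease (1.62, 0.197 and 0.012). Genes with an asymmetric −1 nucleosome had 2 members in 19 windows (10.5%, interval 1.3% to 33.1%). They were *RET2*, a subunit of the COPI coat (1.19, 0.0621 and 0), and *PFK27*, which makes the regulator fructose 2,6-bisphosphate (1.13, 0.145 and 0).

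**Figure D5:**
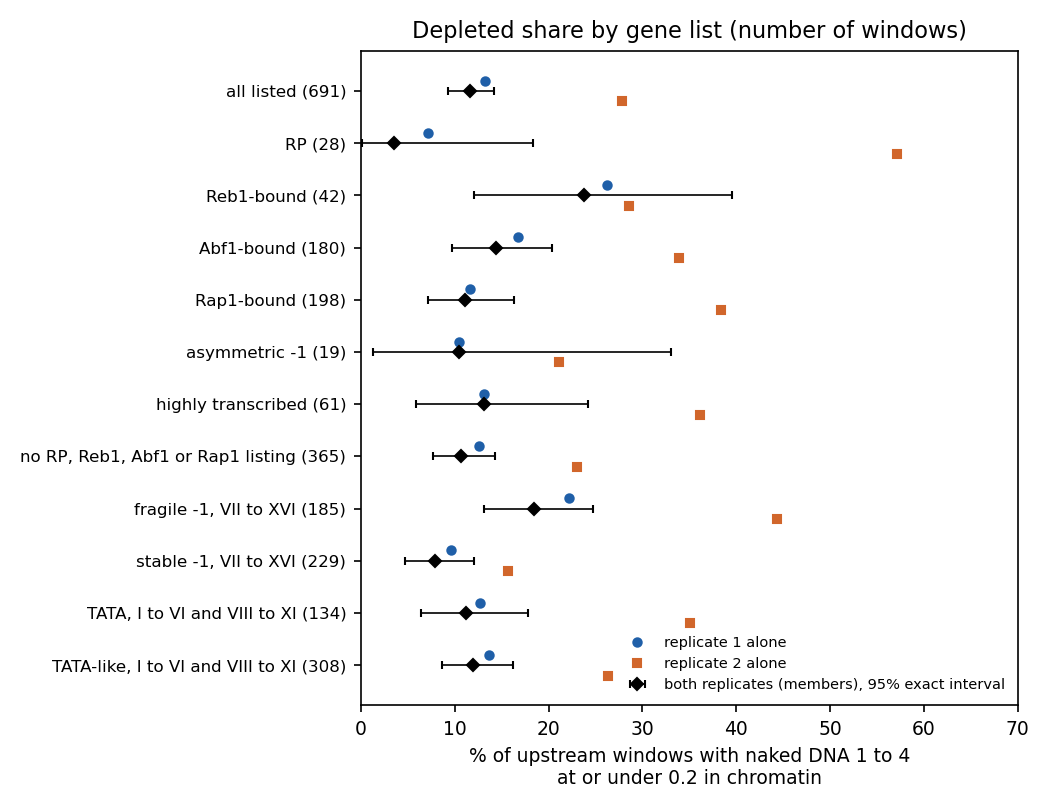
For each gene list, with its number of upstream windows with naked DNA from 1 to 4 in brackets, the x axis gives the percentage at or under 0.2 in both replicates (diamonds, with 95% exact intervals), in replicate 1 alone (circles) and in replicate 2 alone (squares). Replicate 2 lies to the right of replicate 1 in every list and furthest for RP genes (57.1% against 7.14%), and fragile −1 genes lie to the right of stable −1 genes in both. The last 4 lists are shown for the chromosomes named beside them.

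The gene body held only 3 members among 4255 windows with naked DNA from 1 to 4. *AGP3*, an amino acid permease, had 246 counts of naked DNA (1.88), 11 in replicate 1 (0.114) and 3 in replicate 2 (0.0359) in a window 196 bp before its pAS (VI:19651-19800). *WSC4*, of the family of cell wall stress sensors, had 160 (1.22), 16 (0.166) and 2 (0.0239), 308 bp downstream of its TSS (VIII:48451-48600). The window in *YEL025C* (V:106201-106350), an open reading frame without a standard name, had 157 (1.2), 8 (0.0828) and 2 (0.0239). Replicate 1 alone gave 4 gene body windows and replicate 2 alone 58, so how rare such windows were in gene bodies depended on the replicate.

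Around a pAS, the members were those of *ZEO1*, a plasma membrane protein of the cell wall integrity pathway, and of *GPP1*, a glycerol-3-phosphate phosphatase. *GPP1* had levels of 1.32, 0.145 and 0.0958 in a window centred 12 bp before its pAS (IX:256051-256200). *ZEO1* had levels of 1.38, 0.166 and 0.108, 86 bp beyond its pAS (XV:110851-111000). This window formed the single pair of adjacent members with the next one (XV:111001-111150), which held 213 counts of naked DNA (1.63), 19 in replicate 1 (0.197) and 2 in replicate 2 (0.0239). The pair, singled out after its values were seen, lies between the converging genes *ZEO1* and *INO4*, a transcription factor of phospholipid synthesis, where the RefSeq annotation also places a tRNA gene.

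Gaps between neighbouring listed genes were sorted by what the RefSeq annotation places in them. tRNA genes are short, are transcribed by RNA polymerase III and are commonly free of nucleosomes. Of 81 gaps with a tRNA gene, 14 (17.3%) held a member, against 68 of 1384 (4.91%) without one. These gaps are longer, however, with a median of 1820 bp against 200 bp. Per window with naked DNA from 1 to 4, the shares were close, at 15 of 175 (8.57%) and 68 of 819 (8.3%). Away from genes, their upstream windows and pAS, 9 of 135 such windows (6.67%, interval 3.09% to 12.3%) in gaps with a tRNA gene were members, 6 of 442 (1.36%, interval 0.5% to 2.93%) in gaps without one and 5 of 236 (2.12%) outside these gaps. The first contrast came mainly from replicate 1, which alone took 14 (10.4%) and 6 (1.36%) in gaps with and without a tRNA gene, while replicate 2 alone took 22 (16.3%) and 51 (11.5%). With any naked DNA, 525 of 1359 such windows (38.6%) in gaps with a tRNA gene were at or under 0.2 in both replicates. In gaps without one it was 194 of 2278 (8.52%), so this contrast is not particular to the members. Of the 20 members that lay elsewhere, 9 were in a gap with a tRNA gene. Another view is by distance, in which 5 of the 20 lay 300 to 400 bp upstream of a TSS. Of all windows with naked DNA from 1 to 4 there, 6 of 139 (4.32%) were members from 350 to 300 bp and 1 of 164 (0.61%) from 400 to 350 bp, counted by window and gene.

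Gaps with no other gene in them were also sorted by the orientation of their genes. Of the windows with naked DNA from 1 to 4, 35 of 195 (17.9%, interval 12.8% to 24.1%) were members between tandem genes, 23 of 202 (11.4%, interval 7.36% to 16.6%) between divergent genes and 1 of 12 (8.33%, interval 0.211% to 38.5%) between convergent genes. These intervals overlap. Only 1 of 143 convergent gaps (0.699%) held a member, against 35 of 689 tandem (5.08%) and 23 of 392 divergent gaps (5.87%), so tandem and divergent gaps changed order when counted by gap. Convergent gaps have no promoter and had a median length of 84 bp, less than a window, so that few windows are centred in them.

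The deletion of *DST1* itself gave no member. Of the 5 windows that overlap the longest stretch of chromosome VII around it without *dst1∆* reads, 4 had naked DNA under 1 and 1 had 6.91, over the upper limit.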

How the data were processed

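MNase-digested fragments of mononucleosome size were sequenced in 1 naked DNA library and 2 *dst1∆* chromatin libraries. Per the authors, GEM (version not given in the sources used here) placed reads on sacCer2 with at most 3 mismatches, and only unambiguously placed reads were retained. Each deposited line gives the position and strand of 1 read, repeated reads included, and a constant score of 1000 that the authors added for display and that was not used. Read spans were 36 bp in the naked DNA and in replicate 1, and 46 bp in 99.89% of the lines of replicate 2.

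The windows and the gene lists were chosen with earlier results of these data known. Mitochondrial reads were left out. TSS, pAS and gene lists came from the study's supplementary table. It was used in part (1999 lines), so positions were read only before 290 kb of each chromosome, where it is complete; 14 genes with several entries were dropped, and the tables of stable −1 and TATA-like genes were also used in part. Fragile with stable −1 genes and TATA with TATA-like genes were compared on the chromosomes that these parts cover, which was decided after the data were seen. The symbols of 1959 of 1971 genes and the genes between neighbours came from RefSeq (assembly R64), with none of its coordinates. Positions are 1-based sacCer2 coordinates.

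Profiles were smoothed with a Gaussian of 20 bp SD. Named genes are the 3 of each list with the highest naked DNA in an upstream member, the 3 members with the highest naked DNA in gene bodies and around a pAS, and those nearest to each limit; runs of 3 or more were to be named but none was found. No test was run. The alternatives were the limit on repeated reads (none, or 1 read), a shift of 60 bp, windows tiled from 75 bp or of 100 bp, scaling to the median, thinning to the shallowest library, other limits on either signal, each replicate left out, and other bounds for position and width. The steps were tested on simulated data. Motifs and G + C content were not run, since no sequence of this build was used here. Computations ran in Python 3.11.15 with pandas 2.3.3, numpy 2.4.6 and scipy 1.17.1, and plots were drawn with matplotlib 3.10.9.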

Additional observations from a re-analysis of the deposited data

Results flagged for a closer look

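Replicate 2 of *dst1∆* held 1285 reads outside the nuclear chromosomes, all on the mitochondrial genome, where the naked DNA and replicate 1 held 0. They were not used in any window, and their source was not tested.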

How the results depend on the processing

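Between 54.5% and 89.7% of the members lay upstream of genes in every alternative run, against 76.2%, but which windows are members changed. With no limit on repeated reads 138 of the 241 were still members (57.3%), with 1 read per position 83 (34.4%), with a 60-bp shift 194 (80.5%) and with median scaling 103 (42.7%). The cause of these changes was not tested. Single windows with 1 to 19 chromatin counts are limited by depth, the naked DNA has no replicate, and position is known only before 290 kb. No paired analysis was possible because the naked DNA has 1 library and no value comes from a test.

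The number of members was 93 and 385 with chromatin limits of 0.1 and 0.3, 127 with naked DNA of at least 1.5, 610 with 100-bp windows and 527 with median scaling, and 287 to 982 with a replicate left out. Adjacent runs numbered 0 with 1 read, with a limit of 0.1 or with naked DNA of at least 1.5, 6 with a limit of 0.3, 21 with 100-bp windows and 7 with median scaling, and 4 to 60 with a replicate left out. Of the members, 89.7% (1 read), 63.6% (100 bp) and 66% (limit of 0.3) lay upstream, and 54.5% to 70.5% with a replicate left out. Around a pAS it was 0 with no limit on repeated reads, with a limit of 0.1 and with naked DNA of at least 1.5. In gene bodies it was 14.8% with 100 bp, and 3.1% to 16.5% with a replicate left out. Of the upstream windows with naked DNA in range, 5.53% (1 read), 17.7% (100 bp), 5.21% (0.1), 14.9% (0.3) and 18.5% (200 bp upstream to the TSS) were members, and 13.2% to 27.8% with a replicate left out. Of all listed genes, 3.77% (no limit on repeated reads), 9.71% (100 bp), 9.98% (median), 2.23% (0.1), 6.53% (0.3) and 2.71% (naked DNA of at least 1.5) had a member, and 5.73% to 11.6% with a replicate left out. On chromosomes VII to XVI, a restriction chosen after seeing the data, fragile −1 genes had the larger share against stable −1 genes in each of these settings, for instance 3.91% against 1.17% (0.1) and 13.6% against 6.28% (median).

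The median width in replicates 1 and 2 was 256 and 257 bp with no limit on repeated reads, 197 and 198 bp with 1 read, 193 and 195 bp with 100-bp windows, 212 and 232 bp with a limit of 0.3, and 346 and 304 bp up to the genome mean. In replicate 2 it was 220 bp with median scaling and 214 bp with a limit of 0.1. With a replicate left out it was 119 to 223 bp in replicate 1 and 219 to 273 bp in replicate 2.

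The highest level within 400 bp on the promoter side in replicates 1 and 2 (1.73 and 1.82) was 2.2 and 2.83 with no limit on repeated reads, 1.34 and 1.67 with 1 read, 1.6 and 1.92 with median scaling, 1.98 and 2.08 with a limit of 0.1, and 2.02 and 2.1 with naked DNA of at least 1.5. In replicate 1 it was 1.8 with a 60-bp shift, 1.95 with tiling from 75 bp and 1.61 with thinning, and in replicate 2 it was 1.71 with 100-bp windows and 1.75 with a limit of 0.3. On the gene side (1.62 and 2.27) it was 3.79 and 3.71 with no limit on repeated reads, 2.11 in replicate 1 with median scaling, and 1.78 in replicate 2 with 1 read. With a replicate left out it was 1.64 to 1.77 on the promoter side in replicate 1 and 1.3 to 1.7 in replicate 2, and 1.51 to 1.58 and 1.52 to 2.08 on the gene side.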
